A study of Homo sapiens with 6 samples.

Results

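UCA1 (urothelial cancer associated 1; gene ENSG00000214049) is a long non-coding RNA gene on chromosome 19, 15828206 to 15836326, plus strand, GRCh38. The rows studied were the Ensembl transcripts of the deposited table whose symbol, without its isoform number, was UCA1. There were 7 such isoforms among 1437 transcripts, of which 688 carried Ensembl identifiers. GENCODE release 29 lists 36 UCA1 transcripts, and the 29 others were not analysed here, so sums over the 7 isoforms are not the level of the whole gene. UCA1 had more rows than any other annotated gene of the table, ahead of LRRC75A-AS1 and SNHG15 with 5 each.

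The samples were 3 of HBE, a cell line labelled as normal lung epithelium (also spelled HEB), and 3 of A549, a lung adenocarcinoma line. The HBE medium was RPMI-1640 and the A549 medium DMEM, both with serum and antibiotics, so medium and line cannot be told apart. Neither line was treated or genetically altered according to the labels, and each group is 1 cell line. Separate cultures within a line are not stated in the labels. The p-values may therefore cover technical spread alone. The authors put a transcript into the table for its difference between these same samples. A call on a row therefore repeats the choice that put it there.

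UCA1 RNA was first described in bladder carcinoma and is also known as CUDR, from work on drug resistance. It has been described at raised levels in many carcinomas, including those of the lung, and in cisplatin resistance. Its RNA is spliced, and it has been described as binding microRNAs, among them miR-143 and miR-193a-3p, in the cytoplasm. The study's title concerns another lncRNA, GLIDR, with miR-342-5p and cisplatin resistance. UCA1 appears here as 1 of the lncRNAs that the authors listed between the lines.

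The 7 isoforms are built around 1 exon. A block of 102 bases, 15831255 to 15831356, is exonic in every one of them and is the only stretch that all 7 share. It is printed because the isoforms differ in what precedes and follows it.
Shared exon: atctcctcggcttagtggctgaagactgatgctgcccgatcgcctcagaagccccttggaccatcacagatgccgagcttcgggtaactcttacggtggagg

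After this exon the isoforms split over 4 downstream exon starts. UCA1-213, UCA1-222, UCA1-223 and UCA1-229 continue at 15834502, a junction found in 16 of the 36 GENCODE isoforms. UCA1-201 continues at 15834636 (3 of 36), UCA1-228 at 15835218 (4 of 36) and UCA1-217 at 15834158 (UCA1-217 alone). The lines below show the last 20 bases of the shared exon in lower case and the first 20 bases of the next exon in capitals.
UCA1-223 (and 3 others): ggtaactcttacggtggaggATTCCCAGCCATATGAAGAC
UCA1-201: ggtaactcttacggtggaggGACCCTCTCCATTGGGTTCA
UCA1-217: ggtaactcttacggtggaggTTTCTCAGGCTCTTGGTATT
UCA1-228: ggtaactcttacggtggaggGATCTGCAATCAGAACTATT

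Further differences lie at the ends and in other junctions. UCA1-223 (ENST00000645177, 1267 nt, 4 exons) joins 15835280 to 15835554, a junction of 3 GENCODE isoforms that no other isoform of the 7 uses. UCA1-229 (ENST00000645805, 2365 nt, 5 exons) starts farthest upstream, at 15828206, and its junction from 15828398 to 15828801 is in no other GENCODE isoform. It also joins 15835114 to 15835218, a junction of 12 GENCODE isoforms that none of the other 6 uses. UCA1-222 (ENST00000645156, 1731 nt, 2 exons) starts inside the intron, at 15830542, and reads through into the shared exon. Capitals mark the first bases of the exon after the boundary, and for UCA1-222 of the shared exon after intron sequence.
UCA1-223, last junction: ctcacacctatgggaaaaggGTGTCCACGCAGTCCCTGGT
UCA1-229, first junction: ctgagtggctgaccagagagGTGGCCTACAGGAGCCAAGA
UCA1-222, intron into exon: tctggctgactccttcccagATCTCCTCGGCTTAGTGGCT

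**Figure D1:**
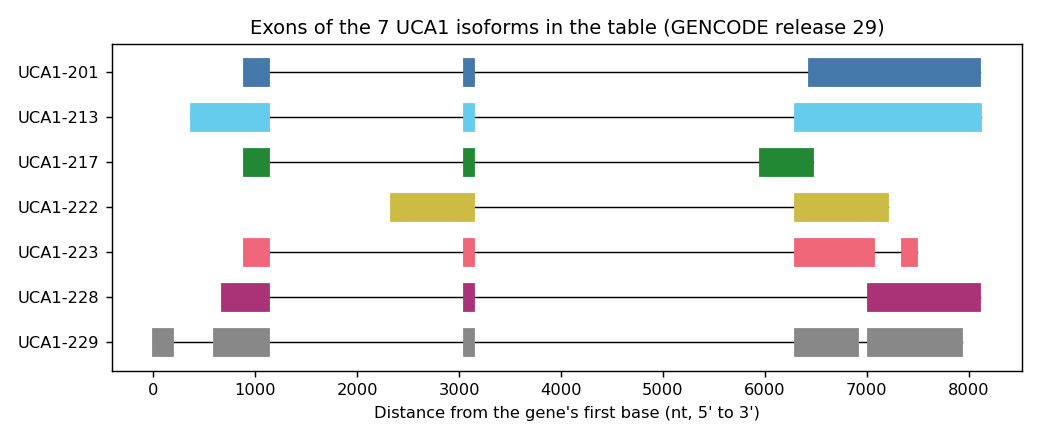
Exon maps of the 7 UCA1 isoforms of the table, 1 per line, with exons as boxes, introns as lines and distance from the gene's first base in nucleotides on the horizontal axis. All 7 share the 102-base exon, UCA1-217 and UCA1-222 stop before the distal region that the other 5 enter, and UCA1-222 alone begins within the intron.

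UCA1-201 (ENST00000397381, 2025 nt), UCA1-217 (ENST00000644590, 864 nt) and UCA1-223 start at 15829095, the start of 20 of the 36 GENCODE isoforms. UCA1-213 (ENST00000644174, 2687 nt) starts at 15828579 and UCA1-228 (ENST00000645764, 1659 nt) at 15828884. At the 3′ side, 24 of the 36 GENCODE isoforms end within 15835415 to 15835422, but only UCA1-222 of the 7 does. UCA1-217 ends before it, at 15834675. The other 5 end past it, between 15835695 and 15836326, as do 9 of the 36.

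Little sequence belongs to a single isoform. UCA1-201, UCA1-223 and UCA1-228 have 0 bases that are not also exonic in another GENCODE isoform of UCA1, and UCA1-213 has 5. UCA1-229 has 193 such bases (8.16% of its length), UCA1-217 has 161 (18.6%) and UCA1-222 has 600 (34.7%). Reads that fall in shared bases have to be divided between isoforms by an estimate. Such bases are also shared with GENCODE isoforms outside the table. The count of an isoform therefore rests on this division, and so does the sum. How the division acted on these counts was not tested.

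A direct repeat lies inside the gene as well. The stretch from 15828735 to 15829200 near the 5′ end aligned with 15835688 to 15836170 near the 3′ end on the same strand, at 90.0% identity over 489 aligned positions. The 2 copies make up 48.2% of UCA1-228, 35.9% of UCA1-229, 35.3% of UCA1-213 and 29.1% of UCA1-201. They make up 12.3% of UCA1-217 and 9.0% of UCA1-223, and UCA1-222 has none. Outside the locus no GENCODE transcript matched any of the 7 at 97% identity or more over at least 50 bases. On the opposite strand, exons of the lncRNA LINC01764 overlap 9.36% to 24.15% of 6 isoforms and 0% of UCA1-217. The sources used here do not say whether counting used the strand of the reads, so reads of the 2 genes may not be separable there.

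In HBE all 7 isoforms had counts in every sample, and in A549 every isoform was at 0 in all 3 samples. No count in A549 was found for 27.7% of all transcripts of the table. The summed estimated count was 439, 531 and 230 in HBE replicates 1, 2 and 3, and 0 in each A549 sample. Scaled by the library size this was 7.81, 10.2 and 4.66 CPM, a mean of 7.57 ± 2.80 CPM (SD, n = 3). The lines did not overlap, as for 51.8% of the transcripts of the table in this direction. HBE replicate 3 was the lowest of its line when scaled by library size. Its counts over the whole table also summed to less, 489102 against 1396936 and 1130104 in replicates 1 and 2. The order within HBE therefore depends on the scaling, and replicate 3 is not the lowest per table total.

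Library sizes recovered from the table were 49376404 to 57664369, so 1 count was worth 0.0173 to 0.0203 CPM. Folds are lower bounds, taken as the pooled HBE counts over the pooled HBE library sizes against a floor of 3 counts over the 3 A549 samples, or 0.0177 CPM. They cover only the counting error of the A549 zeros, since the HBE counts enter as they stand. They are not the ratio of the mean CPM of the samples. On that floor the summed UCA1 level was at least 429.58-fold lower in A549. The bound was 169-fold with TMM factors and 163.5-fold with DESeq2 size factors, both taken from the table, and 155-fold with column totals, and these scalings lower the bound of each isoform by the same factor. Without 1 HBE sample it was 357-fold to 506-fold, and without 1 A549 sample 283-fold to 289-fold, since the floor then rests on 2 libraries. On the log2(CPM + 0.1) scale the difference gave p = 0.1 in the exact permutation test over samples, two-sided, the smallest p that 3 against 3 samples allow.

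Each isoform was called lower in A549 by edgeR's quasi-likelihood test with Benjamini-Hochberg adjustment over all 1437 transcripts at 0.05. In the same fit 99.9% of all transcripts were called in either direction and 52.3% were called lower in A549, or 38.6% with column totals. A call of 7 of 7 is therefore at the background of a table made of selected transcripts, and the calls say nothing about UCA1 beyond its presence there. Of the 3 genes with at least 5 rows, UCA1 was the only 1 without any A549 count. These zeros say nothing of the 29 other GENCODE isoforms of UCA1.

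UCA1-223 was the most abundant isoform by mean count. Its counts were 144, 225 and 45 in HBE replicates 1, 2 and 3, a level of 2.60 ± 1.71 CPM (SD, n = 3). It was at least 148-fold lower in A549, with an adjusted p of 2.20e-07 by edgeR. HBE replicate 3 was the low sample, with a level of 0.911 CPM against 2.56 and 4.34 CPM.

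UCA1-201, the isoform with the lowest transcript number, varied most between the samples in ratio. Its counts were 172, 77 and 12 in HBE replicates 1, 2 and 3, or 3.06, 1.49 and 0.243 CPM, so the highest level was 12.6-fold the lowest. It was at least 93.4-fold lower in A549 (adjusted p = 3.94e-06 by edgeR). This bound rested on HBE replicate 1 and was 49.6-fold without it.

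UCA1-222, the isoform that starts in the intron, was high where UCA1-201 was low, with 46, 63 and 86 counts in replicates 1, 2 and 3. Its level was 1.26 ± 0.463 CPM (SD, n = 3), and the bound was at least 69.8-fold lower in A549 (adjusted p = 2.71e-06 by edgeR). UCA1-217, whose last exon has a start of its own, had 31, 41 and 52 counts in the same samples, 0.798 ± 0.251 CPM (SD, n = 3). It was at least 44.39-fold lower in A549 (adjusted p = 1.49e-05 by edgeR). For these 2 isoforms HBE replicate 3 was the highest sample of its line in CPM, while it was the lowest for the sum.

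The counts of UCA1-229 in HBE were 27, 38 and 17 in replicates 1, 2 and 3, and it was at least 29.35-fold lower in A549. UCA1-213 had 7, 41 and 14 counts and UCA1-228 had 12, 46 and 4, so HBE replicate 2 held most of the 62 counts of each. Both were at least 22.195-fold lower in A549. Without HBE replicate 2 the bound was 11.2-fold for UCA1-213 and 8.54-fold for UCA1-228. The adjusted p of UCA1-213, UCA1-228 and UCA1-229 was 7.29e-05, 0.000103 and 5.00e-05 by edgeR.

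In the authors' deposited table the log2 fold changes of the 7 isoforms ran from -9.83 for UCA1-223 to -7.39 for UCA1-228. The p-values there ran from 2.44e-06 to 0.00149 for the same 2 isoforms. These fold changes depend on how a line at 0 was treated and are not bounds.

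**Figure D2:**
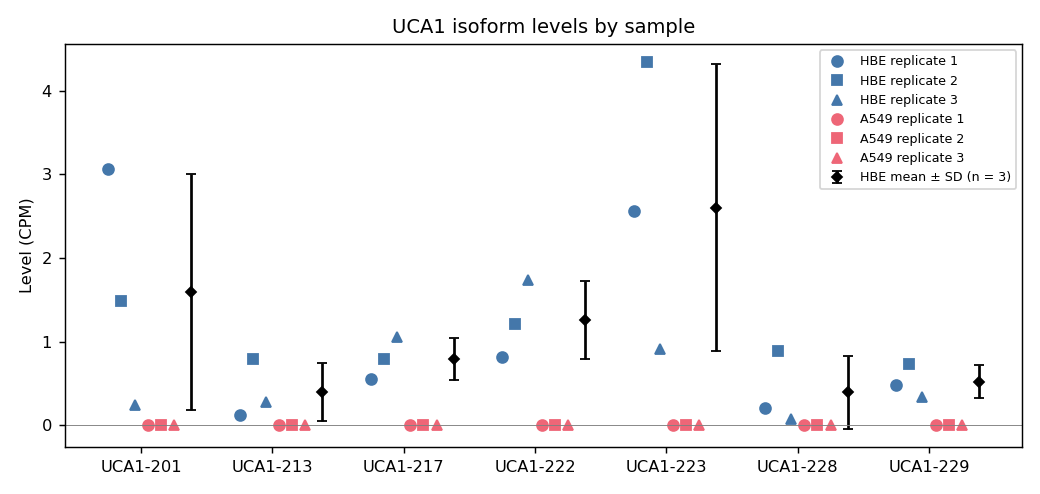
Level of each UCA1 isoform in CPM (vertical axis) in each HBE sample (blue) and A549 sample (red), with the HBE mean and SD (n = 3) as a black diamond and bar. All A549 points lie at 0, UCA1-223 reaches 4.34 CPM in HBE replicate 2, and UCA1-217 and UCA1-222 are highest in HBE replicate 3 while UCA1-201 is lowest there.

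FPKM, in which the authors scaled fragments by transcript length and depth, sets the isoforms side by side per length. In HBE, UCA1-223 stood at 2.05 ± 1.36 FPKM, UCA1-217 at 0.919 ± 0.293, UCA1-201 at 0.784 ± 0.697 and UCA1-222 at 0.722 ± 0.264 FPKM (SD, n = 3 each). UCA1-228 followed at 0.230 ± 0.260, UCA1-229 at 0.217 ± 0.0820 and UCA1-213 at 0.145 ± 0.130 FPKM (SD, n = 3 each). The ranges of all neighbours in this order overlapped, those of UCA1-222 and UCA1-228 only through HBE replicate 2 of the latter. The median of the HBE means over the 387 annotated transcripts lower in A549 was 0.608 FPKM.

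Isoform shares within the summed counts could be formed in HBE only, since a share of 0 counts is undefined. Shares could therefore not be compared between A549 and HBE. Among the HBE samples a different isoform led in each. UCA1-201 led in replicate 1 with 39.2% (exact Clopper-Pearson 95% interval 34.6% to 43.9%). UCA1-223 led in replicate 2 with 42.4% (38.1% to 46.7%), and UCA1-222 led in replicate 3 with 37.4% (31.1% to 44.0%). The intervals cover counting error only and not the division of reads between isoforms.

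The share of UCA1-201 was 39.2%, 14.5% and 5.22% in HBE replicates 1, 2 and 3, and no 2 of its intervals overlapped. That of UCA1-223 was 32.8%, 42.4% and 19.6%, a mean of 31.6% ± 11.5 (SD, n = 3). UCA1-222 held 10.48%, 11.9% and 37.4%, and UCA1-217 held 7.06%, 7.72% and 22.6%. For both, replicates 1 and 2 lay within each other's intervals and replicate 3 lay above them. UCA1-229 held from 6.15% to 7.39%, the narrowest range of the 7. UCA1-213 and UCA1-228 stayed below 10% in every sample.

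By FPKM, which weights short isoforms more, UCA1-223 led in HBE replicates 1 and 2 with 40.3% and 49.8%. UCA1-217, the shortest isoform, led in replicate 3 with 36.6%. So the leading isoform of replicates 1 and 3 depended on the unit, while the standing apart of replicate 3 did not. UCA1-217 and UCA1-222 together held more than the other 5 isoforms of that sample in both units.

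**Figure D3:**
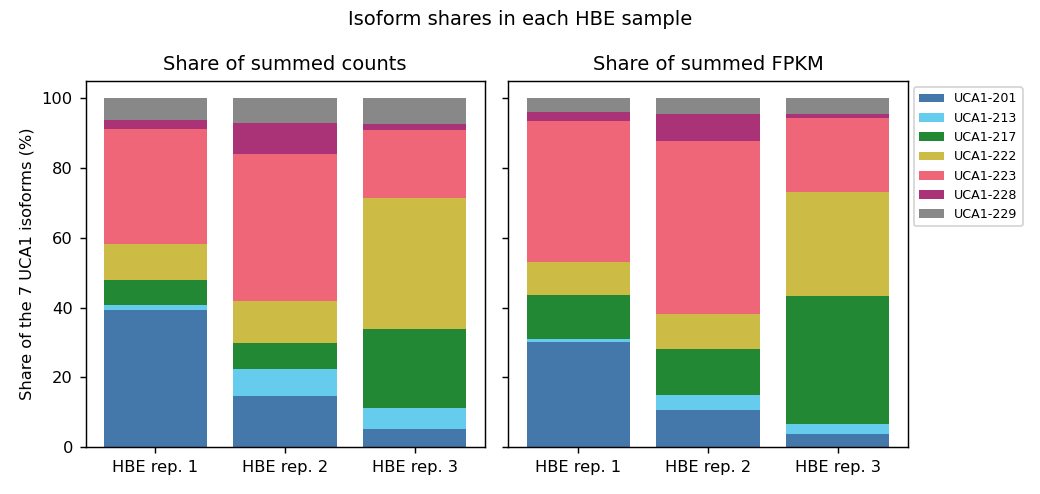
Share of each UCA1 isoform in the summed counts (left) and summed FPKM (right) of each HBE sample, in percent, as stacked bars. UCA1-201 takes 39.2% of counts in replicate 1 and 5.22% in replicate 3, and UCA1-217 and UCA1-222 expand in replicate 3 in both panels.

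The 2 isoforms that were high in HBE replicate 3 are those that do not extend past the common 3′ end at 15835422. This grouping was made after the values were seen and is a description with no test. The same 2 isoforms also stand apart in another trait. Bases exonic in no other isoform of the 7 made up 39.8% of UCA1-217 and 41.2% of UCA1-222. For the other 5 isoforms this was 0% to 8.52%. The 2 traits cannot be told apart with these isoforms. The 5 isoforms that extend past the common 3′ end summed to 362, 427 and 92 counts in HBE replicates 1, 2 and 3, or 6.44, 8.24 and 1.86 CPM. The 2 others summed to 77, 104 and 138 counts, or 1.37, 2.01 and 2.79 CPM. Their share was 17.5% (14.1% to 21.4%), 19.6% (16.3% to 23.2%) and 60% (53.4% to 66.4%), with exact 95% intervals. In FPKM it was 22.1%, 23.3% and 66.6%. Each of the 5 isoforms with the distal 3′ part had a lower level in replicate 3 than in replicate 2, and both of the others had a higher one. Against replicate 1 this did not hold for UCA1-213, at 0.284 CPM in replicate 3 and 0.125 CPM in replicate 1. The share of UCA1-229, which also has the distal part, was highest in replicate 3.

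**Figure D4:**
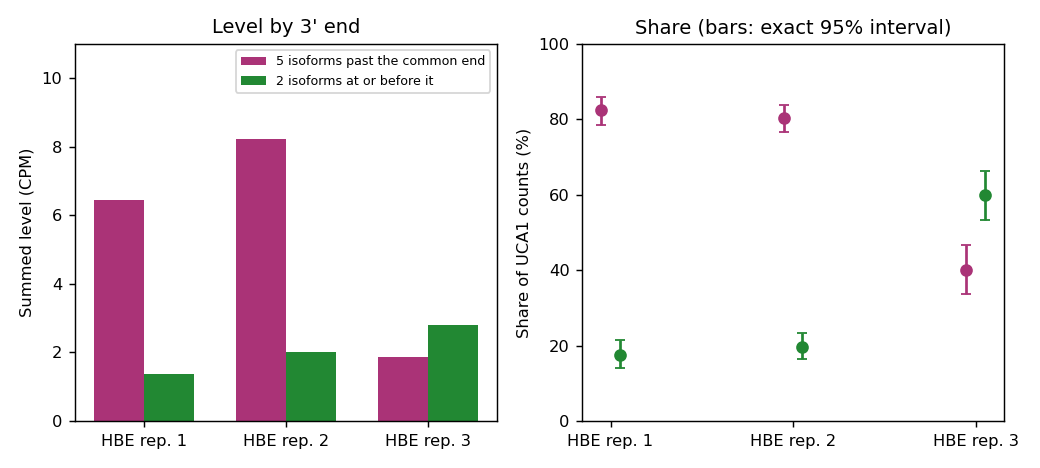
Summed level in CPM (left, bars from 0) and share of UCA1 counts in percent with exact 95% intervals (right) in each HBE sample, for the 5 isoforms that end past the common 3′ end (purple) and the 2 that do not (green). The green share is 17.5% and 19.6% in replicates 1 and 2 and 60% in replicate 3.

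Share differences between HBE samples were set beside those of the other genes of the table with at least 3 annotated rows and at least 100 counts in each HBE sample, 6 genes with UCA1. The distance was the percentage of counts that would have to change isoform for 2 samples to have equal shares. For UCA1 it was 24.7 between replicates 1 and 2, 48.2 between 1 and 3 and 40.6 between 2 and 3. The largest distance of any pair was 29.04 for AC244153.1, 20.8 for LRRC75A-AS1, 18.9 for SNHG15, 14.5 for NUTM2B-AS1 and 0.830 for MIR205HG. UCA1 had the most rows and, in HBE replicate 3, the fewest counts of the 6, and their part in the distance was not tested. By counts UCA1 was the only 1 of the 6 with 3 different leading isoforms. By FPKM UCA1-223 led in both HBE replicates 1 and 2, and the other genes were not compared in that unit.

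The spread within HBE can also be read per isoform. The coefficient of variation of the CPM was 31.4% for UCA1-217, 36.8% for UCA1-222 and 37.99% for UCA1-229. It was 65.8% for UCA1-223, 87.1% for UCA1-213, 88.4% for UCA1-201 and 110% for UCA1-228, and 37.0% for the sum. The median over the 161 annotated transcripts with no A549 count was 43.8%. The sum thus varied less than 5 of its 7 parts.

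Because UCA1 has been described as binding microRNAs, the isoforms were searched for the complements of 4 seeds (bases 2 to 8, capitals). Mature sequences are from RefSeq, GRCh38.p14.
hsa-miR-143-3p: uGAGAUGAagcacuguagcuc
hsa-miR-193a-3p: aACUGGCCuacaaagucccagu
hsa-miR-16-5p: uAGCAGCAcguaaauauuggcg
hsa-miR-342-5p: aGGGGUGCuaucugugauuga

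The miR-143-3p site, TCATCTC, was in 6 of the 7 isoforms, all but UCA1-217, and in 16.5% of the 7909 GENCODE lncRNA transcripts of 864 to 2687 nt. The miR-193a-3p site, GGCCAGT, was in 5 isoforms, at 15835065 in each, and in 10.4% of those transcripts. It was missing from UCA1-217 and UCA1-228, whose exons do not include that stretch. Neither the miR-16-5p site, TGCTGCT, nor the miR-342-5p site, GCACCCC, was found, against 21.2% and 9.57% of the transcripts. On the reverse strand of the isoforms the miR-16-5p letters were found in 2 isoforms, those of miR-193a-3p in 1 and the others in 0. A match of 7 letters is no evidence of binding.

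The miR-143-3p letters occur at 3 places of the gene, and 2 of them lie in the direct repeat with the same flanks. UCA1-213 and UCA1-229 hold all 3, UCA1-201 and UCA1-228 hold 2, and UCA1-222 and UCA1-223 hold 1. Capitals mark the site.
15828974 (upstream copy): gagtcccaTCATCTCtccaccat
15834873 (between the copies): ctggacccTCATCTCttaagacc
15835950 (downstream copy): gagtcccaTCATCTCtccaccat

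Other lncRNAs described in the same settings were called in both directions. Of 23 lncRNAs described in bladder cancer, 6 other than UCA1 had rows, 9 transcripts in all, of which 5 were called higher and 4 lower in A549 by edgeR. This is read against the whole table, of which 99.9% was called and 52.3% was called lower. The median log2 fold change was 1.39, against -2.00 over all 1437 transcripts and at most -5.47 for UCA1 with each isoform at its bound. BLACAT1-201, of a lncRNA named for bladder cancer, was counted 20, 128 and 29 times in the HBE samples in that order, with 1 count over the A549 samples, so its pooled HBE level was 190 times that of A549, with exact 95% limits of 33.7 and 7550 that cover counting error only. HBE replicate 2 held most of these counts, and without it the ratio was 78.5. LINC00346-201 was lower in A549 too, where its level was 0.881 ± 0.0754 CPM, while HBE had 8.28 ± 2.99 CPM (SD, n = 3 each). NEAT1-201, of the nuclear paraspeckle RNA, and GAS5-207, of a snoRNA host, were among the 5 higher in A549.

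Of 24 lncRNAs described in platinum resistance, 9 other than UCA1 had rows, with 10 transcripts higher and 6 lower in A549, against the same 99.9% called and 52.3% lower in the table, and a median log2 fold change of 2.02. The 4 with the smallest adjusted p were AFAP1-AS1-201, SFTA1P-203, SFTA1P-204 and CDKN2B-AS1-203, all lower in A549. The lists share NEAT1, PVT1 and GAS5, and the authors chose the transcripts on these samples, so neither count stands as independent evidence. With scalings taken from the table only 2 of the 4 lower calls of the bladder list were left and 4 of the 6 of the platinum list, and all higher calls of both. With the replicate number as a block the bladder list had 3 higher and 3 lower calls and the platinum list 8 and 5. Without HBE replicate 2 they had 3 higher and 4 lower, and 8 higher and 6 lower.

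The 1 annotated neighbour of the table within 2 Mb of UCA1 was BISPR-212, of a lncRNA beside the interferon-induced gene BST2. Its HBE samples held 44, 62 and 26 counts in the same order and A549 held none. By counts and CPM it was thus highest and lowest in the same HBE samples as UCA1. With 3 samples this is 1 of few possible orders, and the match was not tested. LINC01764, which overlaps UCA1 on the other strand, was not analysed here.

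Over the 6 samples the gene whose summed profile lay nearest to that of UCA1 was AC004846.1, with 8.24, 10.4 and 9.36 CPM in HBE replicates 1, 2 and 3 and no count in A549. The measure was the root mean square difference of log2(CPM + 0.1) values centred on each gene's mean, 0.363 for AC004846.1 among 262 genes. LINC02381 (0.449), AC244153.1 (0.524), GAS6-DT (0.563) and LINC01503 (0.619) followed. All 5 were absent or nearly absent in A549, and the measure selects for such a drop, since UCA1 was at 0 there. LINC02381 had 5, 13 and 2 counts in A549 replicates 1, 2 and 3. GAS6-DT had 2 A549 counts in all and the others had 0. No A549 count was found for 27.7% of all transcripts of the table. In HBE replicate 3, where UCA1 was lowest in CPM, AC244153.1 and GAS6-DT were highest.

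The labels of the lines could be checked on few markers, since the table holds lncRNAs only. The airway epithelial host gene MIR205HG had 3 transcripts in the table, all counted in HBE and none in A549. Both transcripts of the alveolar marker SFTA1P in the table were also counted in HBE only. These markers therefore did not tell airway from alveolar identity. The mesenchymal list had 2 transcripts higher in A549, which are isoforms of 1 gene, MIR100HG, and 1 lower. The neural list had 1 each way. Among all 1437 transcripts, 99.9% were called and 52.3% were called lower in A549 by edgeR. The calls of these short lists therefore do not tell the identity of the lines. The blood, endothelial and urothelial lists had 0 transcripts in the table. HBE replicate 3 had the smallest library of the 6, at 49376404, and its table summed to 0.991% of it against 2.18% and 2.48% in the other HBE samples.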

How the data were processed

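RNA of 2 cell lines, HBE and A549, was sequenced by the authors with 3 samples each. Per the submitters' processing notes, HISAT2, StringTie, DESeq2 and the build GRCh38 were used. The sources used here do not say how reads were divided between isoforms. The authors deposited an estimated count (whole numbers) and an FPKM per transcript and sample, with a p-value and a log2 fold change (A549 over HBE), and do not state whether the deposited p-value is adjusted. All 12 per-sample columns were matched to samples by name.

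Library sizes were solved from counts, FPKM and GENCODE release 29 lengths (count = FPKM × length × library size, rounded up), and 99.8% to 100% of nonzero annotated values per sample fitted within 1 count. Counts of all 1437 transcripts were tested with edgeR 4.0.16 (R 4.3.3), quasi-likelihood, with these sizes and no filter. Data for A549 against HBE were also simulated with 1437 transcripts, 200 of them changed around a common mean. There edgeR called 2% of those at 2-fold, 30% at 4-fold, 72% at 8-fold and 96% at 16-fold, and made 4 false calls. In the real data 1435 transcripts were called and 398 had no A549 count, so these rates do not describe that fit. Alternatives used DESeq2 1.42.0, limma 3.58.1 (voom), other scalings, a filter, the replicate block and left-out samples. Copies were sought with BLAST 2.17.0. The members and lists were chosen with earlier results of these data known. All 7 members are named. List transcripts named were those with the 4 smallest adjusted p, and like genes the 5 nearest of genes averaging 50 counts or more in their higher line.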

Additional observations from a re-analysis of the deposited data

How the results depend on the processing

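All 7 UCA1 isoforms were called lower in A549 under every alternative that tested them, and a filter that asked for 10 counts or more in 3 samples left 5 to test, without UCA1-213 and UCA1-228. Over the alternatives the highest adjusted p of any isoform by edgeR was 0.00392, for UCA1-228 with the replicate number as a block. The number of called transcripts in the table was 1435, and 941 with that filter, because 943 were then tested. Leaving out 1 sample gave 1408 to 1431, and the replicate block 1342. TMM factors, DESeq2 size factors, column totals and the DESeq2 Wald test gave 1305, 1301, 1240 and 1307, with 555 to 622 lower calls in place of 751. The first 3 of these moved log2 fold changes by a median of 0.858 to 1.10 in edgeR and lowered the bounds, for UCA1-223 from 148-fold to between 53.48-fold and 58.4-fold and for UCA1-213 from 22.195-fold to between 8.009-fold and 8.74-fold.

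Deviations of same-numbered samples correlated at 0.0164, -0.0684 and -0.192 over 296 transcripts counted in every sample. Those of differently numbered samples correlated at -0.0800 to 0.144. With deviations taken within so few samples per line, these values cannot tell a weak pairing from none. With the block the summed UCA1 difference had p = 0.25 in the exact sign-flip test, the smallest that 3 pairs allow. Its log2 value of -6.19 was -3.04 with a pseudocount of 1 CPM and -9.49 with 0.01 CPM. With column totals it was -12.01, since the values are then per table total and far larger than the pseudocount. The share of UCA1-223 in HBE, 31.6% in counts, was 26.2% to 37.6% without 1 sample. The share of the 2 isoforms without the distal end was 32.4%, and 18.6% without HBE replicate 3. No share could be compared between the lines under any setting. The floor of 0.0177 CPM for each isoform in A549 rests on depth alone and does not cover the division of reads between isoforms.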
